A study of Mus musculus with 55 samples.

Results

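The nuclear oxidative phosphorylation genes taken here encode protein subunits of the mitochondrial respiratory chain and ATP synthase and some of the assembly factors. Members were taken by symbol: those starting with Nduf, Uqcr, Atp5 or Cox and a digit, plus Sdha, Sdhb, Sdhc, Sdhd, Cyc1 and Cycs, with pseudogene symbols (-ps) left out. The rule found 101 of the 16442 genes listed over both count tables. Of these, 43 belong to complex I, 4 to complex II, 9 to complex III, 27 to complex IV and 17 to complex V, and Cycs encodes the mobile carrier cytochrome c. The EpiSC table listed 100 members, of which 97 passed the filter on low counts, and the tailbud table listed 98, of which 90 passed.

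RNA was measured by CEL-Seq, which tags each transcript at its 3′ end, in 17 mouse libraries. Epiblast stem cells (EpiSCs), a culture model of the post-implantation epiblast, formed 4 groups of 2 libraries. Null EpiSCs at 24h came from pre-streak embryos that the labels call CdxKO, and had been freed of the Wnt secretion inhibitor IWP2 and given 3 µM Chiron, a GSK3 inhibitor that activates Wnt signalling, with 120 ng/ml Fgf8. The growth text of the Null libraries also speaks of genotyping EpiSCs null for Wnt3, so the Null genotype is uncertain beyond the name CdxKO. WT EpiSCs at 24h came from WT pre-streak embryos and had the same treatment. Null and WT EpiSCs at 0h were still in 2 µM IWP2. All 4 groups were grown with Fgf-basic and Activin A, first on mouse embryonic fibroblasts and then on fibronectin without feeder cells. No untreated 24h culture was among the groups, so Chiron, Fgf8, loss of IWP2 and time in culture cannot be told apart. E8.0 tailbuds, the microdissected posterior end of the embryo, formed 3 groups of 3 libraries with the genotypes Triple, Cdx1-4 and WT, which the labels do not spell out. The labels do not say whether replicates were separate cultures, lines or animals, so p-values measure only the spread between these libraries.

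Library totals were 1114055 to 2914870 counts in EpiSCs and 389601 to 854852 in tailbuds. Levels are given as CPM, the counts of a gene scaled to a common total of the tested genes with TMM factors. In single libraries a floor of 3 counts corresponds to 1.04 to 2.71 CPM for EpiSCs, and for tailbuds to 3.66 to 8.17 CPM. Since each transcript is tagged once, CPM can be set side by side between genes without a length term. In tailbuds Cdx4 held 0 counts over the Triple libraries, 1 over the Cdx1-4 libraries and 68 over the WT libraries. Cdx1 held 101, 115 and 288 counts over the same groups, Cdx2 held 136, 384 and 363, and T held 147, 356 and 316. In EpiSCs Cdx2 held 21 and 19 counts in Null cells at 24h, against 87 and 21 in WT cells at 24h, and 0 and 6 in Null cells at 0h, against 6 and 5 in WT cells at 0h. The labels do not give the deleted part, so these 3′ counts check neither the Null genotype nor the tailbud genotypes. The tailbud markers were T, Cdx1, Cdx2, Cdx4, Wnt3a, Fgf8, Tbx6, Hoxb9, Evx1 and Nkx1-2. They summed to 898 to 979 CPM in Null cells at 24h, against 34.3 to 44.2 CPM at 0h, and to 688 to 929 CPM in WT cells at 24h, against 84.6 to 93.9 CPM at 0h. The summed fibroblast markers, all 7 of them listed, were 86.2 to 108 CPM in Null cells at 24h, 115 to 149 CPM in WT cells at 24h, 102 to 119 CPM in Null cells at 0h and 209 to 255 CPM in WT cells at 0h. They moved with both comparisons that use WT cells at 0h, and were also lower in Null than in WT cells at 24h. In that comparison 1 of the 4 tested fibroblast markers was lower and none was higher, while their median log2 difference was 0.30. The epiblast markers, 10 of 10 listed, summed to 2389 to 2418 CPM in Null cells at 24h, 338 to 355 CPM in WT cells at 24h, 2376 to 2789 CPM in Null cells at 0h and 1163 to 1237 CPM in WT cells at 0h. At 24h against 0h, 6 of the 8 tested epiblast markers were lower and 1 was higher in each genotype. Their median log2 differences were -2.33 in Null cells and -1.88 in WT cells, so the sums over time in Null cells do not show the typical marker. Between genotypes, 5 of the 8 were higher and none lower in Null than in WT cells at 0h, with a median of 0.91. At 24h, 4 were higher and 1 was lower in Null cells, with a median of 0.97. The part of these marker sets in the results below was not tested. The erythroid markers reached 333 CPM in 1 Cdx1-4 tailbud library, against 2.71 to 60.7 CPM in the other tailbud libraries.

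Oxidative phosphorylation passes electrons from NADH through complex I, or from succinate through complex II, to complex III, cytochrome c and complex IV, where oxygen is reduced to water. The proton gradient that complexes I, III and IV build drives ATP synthase, also called complex V. Most subunits are encoded in the nucleus and imported, and a core set is encoded in mitochondrial DNA, which is not analysed here. In early mouse development, naive pluripotent cells use both respiration and glycolysis, while primed cells such as EpiSCs are known for a strong reliance on glycolysis. Nuclear respiratory factor 1 (NRF1), the Ets factor GABP (nuclear respiratory factor 2) and YY1 are known activators of these promoters.

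The promoters of 5 members that changed over 24h are shown because the members moved in different directions while sharing a pathway. Each sequence is the 250 bases before the RefSeq start site (GRCm38.p6, minus strand), 5′ to 3′, and capitals mark a match to the NRF1, Ets or YY1 motif. The windows are chr19:7217617-7217866 for Cox8a, chr17:83514334-83514583 for Cox7a2l, chr7:30626115-30626364 for Cox6b1, chr16:37654369-37654618 for Ndufb4 and chr13:86046796-86047045 for Cox7c. The first 4 genes were higher at 24h in WT cells and Cox7c was lower.
Cox8a: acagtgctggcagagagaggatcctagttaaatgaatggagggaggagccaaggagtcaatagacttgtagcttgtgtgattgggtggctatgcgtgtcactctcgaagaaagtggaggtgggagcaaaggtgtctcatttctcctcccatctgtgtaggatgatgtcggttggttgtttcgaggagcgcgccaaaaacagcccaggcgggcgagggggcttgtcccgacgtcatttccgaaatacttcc
Cox7a2l: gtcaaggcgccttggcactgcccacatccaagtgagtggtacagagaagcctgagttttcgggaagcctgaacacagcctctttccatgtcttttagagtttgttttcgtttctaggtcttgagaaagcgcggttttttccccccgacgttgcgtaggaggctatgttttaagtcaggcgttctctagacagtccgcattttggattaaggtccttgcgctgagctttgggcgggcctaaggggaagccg
Cox6b1: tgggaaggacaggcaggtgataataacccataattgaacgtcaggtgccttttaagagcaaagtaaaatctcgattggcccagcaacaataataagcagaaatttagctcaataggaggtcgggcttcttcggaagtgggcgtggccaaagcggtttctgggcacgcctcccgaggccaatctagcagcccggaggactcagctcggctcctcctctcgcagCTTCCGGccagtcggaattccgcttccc
Ndufb4: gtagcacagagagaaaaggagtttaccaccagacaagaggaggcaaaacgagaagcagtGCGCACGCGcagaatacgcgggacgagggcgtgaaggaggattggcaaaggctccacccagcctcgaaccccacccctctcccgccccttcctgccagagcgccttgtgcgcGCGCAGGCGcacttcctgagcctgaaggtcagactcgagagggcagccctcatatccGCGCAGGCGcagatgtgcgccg
Cox7c: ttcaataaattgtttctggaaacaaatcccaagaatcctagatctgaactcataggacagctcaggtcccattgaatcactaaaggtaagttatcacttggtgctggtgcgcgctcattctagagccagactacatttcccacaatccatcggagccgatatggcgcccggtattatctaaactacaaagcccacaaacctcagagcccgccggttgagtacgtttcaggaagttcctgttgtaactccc
Ndufb4 held 3 NRF1 matches and Cox6b1 held 1 Ets match close to its start site, while Cox8a, Cox7a2l and Cox7c held none in this window. Cox8a has an Ets match in the 300 bases searched that does not lie wholly within the bases shown. It counts among the Ets matches below.

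Motifs were searched as exact letters on both strands of the 300 bases from 250 before to 50 after each start site, and matches of one motif can overlap. RefSeq promoters were found for 83 members, 90 promoters in all. The NRF1 motif GCGCANGCG, which reads nearly the same on both strands, was present in 26.7% of member promoters, 14.3% of the 9474 promoters of genes tested in EpiSCs and 6.25% of all 32851 promoters. The YY1 motif AAGATGGCG was present in 11.1%, 3.37% and 1.4% of these sets, and the Ets motif CCGGAAG in 25.6%, 18.7% and 8.86%. SP1 boxes (GGGCGG) were in 45.6%, 65.2% and 35.7%, and TATAAA in 8.89%, 6.7% and 13.6%. For both of these the members lay between the tested genes and all promoters. By complex, 7 of 16 complex V members and 10 of 38 complex I members had an NRF1 match, against 1 of 20 complex IV members, whereas 8 of 20 complex IV members had an Ets match. Among members higher at 24h, 4 of 13 in Null cells and 2 of 10 in WT cells had an NRF1 match. These matches are letters in a window and say nothing of binding.

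The members were abundant transcripts in every group. The median member had a mean of 206 CPM in EpiSCs and 195 CPM in tailbuds. Among genes that passed the filter, the median was 209 CPM for members and 28.2 CPM for all genes in EpiSCs, and 209 CPM for members and 55 CPM for all genes in tailbuds. In both tables the highest member of each complex was the same gene. Atp5g3, which encodes the c subunit of the ATP synthase rotor ring, averaged 2283 CPM in EpiSCs and 2034 CPM in tailbuds. Cox8a, a small subunit of complex IV, averaged 1641 and 1750 CPM in these tables, and Ndufa12, an accessory subunit of complex I, 1393 and 1207 CPM. Cytochrome c (Cycs) averaged 946 and 1117 CPM, the complex III subunit Uqcrq 888 and 635 CPM, and Sdha, the flavoprotein of complex II, 246 and 241 CPM. Across the 97 members listed in both tables, Spearman's rho of mean CPM was 0.966, a description over genes from tables that were normalized separately.

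Subunits of the same complex stood at unequal transcript levels. In complex V, the catalytic subunit Atp5b ranged from 1325 to 1500 CPM over the EpiSC libraries and its partner Atp5a1 from 1000 to 1130 CPM. In complex I, the core subunits Ndufv1 and Ndufs1, which carry electrons from NADH through flavin and iron-sulfur clusters, ranged over EpiSC libraries from 109 to 156 CPM and from 197 to 276 CPM. In complex II, Sdhb ranged from 106 to 149 CPM and Sdhc from 88.2 to 121 CPM, while Sdhd, a membrane anchor, was counted at 2.09 to 7.23 CPM. The lowest member of complex I in EpiSCs was Ndufs5, an accessory subunit with a mean of 0.146 CPM. It had 2 counts over all EpiSC libraries, and RefSeq lists a pseudogene named for it. Whether the low counts of Ndufs5 and Sdhd reflect their transcript levels was not tested. Sdhd was also low in tailbuds, at 0 to 5.44 CPM, and was not tested there. In complex III, Uqcrc2 ranged from 186 to 243 CPM and Cyc1, the heme protein that hands electrons to cytochrome c, from 175 to 241 CPM. Assembly factors were lower than subunits, with a median in EpiSCs of 34.1 CPM for those of complex I and 51 CPM for those of complex IV, against 182 CPM for accessory subunits of complex I and 435 CPM for subunits of complex IV.

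Where a complex IV subunit has alternative genes, 1 gene dominated, while the counts of the c subunit of complex V were spread over 3 genes. The muscle isoforms Cox6a2 and Cox7a1 made up at most 2.24% and 2% of the counts of their pair in any EpiSC library, and Cox6b2, known from testis, 5.41% to 8.95%. Cox8b, the muscle counterpart of Cox8a, had 1 count over all EpiSC libraries, and the hypoxia-linked isoform Cox4i2 had 1 count over all tailbud libraries. The 3 genes for the c subunit encode the same mature protein with different import sequences. Atp5g3 made up 56.3% to 64.6% of their counts in EpiSC libraries and 50.5% to 62.7% in tailbud libraries. Atp5g1 made up 15.9% to 21.8% in EpiSCs and 21.4% to 28.2% in tailbuds. Ndufa4, now placed in complex IV although named for complex I, held 96.4% to 100% of the counts it shares with its paralog Ndufa4l2 in EpiSCs.

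In Null EpiSCs, 17 of the 97 tested members were higher at 24h than at 0h and none was lower, at an adjusted p below 0.05 in edgeR's quasi-likelihood test over all 9703 genes. Of all tested genes, 18.6% were called in this comparison, 9.18% higher and 9.44% lower, so the members' share called (17.5%) was close to the background and the share higher (17.5%) was above it. The median log2 difference was 0.13 over members and 0.01 over all genes, and 71 of 97 members had a positive value. Complex IV had 8 of 24 members higher, complex V 4 of 17, complex I 4 of 42 and complex III 1 of 9. No member of complex II and not Cycs was called.

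In WT EpiSCs, 11 members were higher at 24h and 2 were lower, where 16.8% of all genes were called, 8.19% higher and 8.63% lower. The members' share called was 13.4%, below that of all genes, with 11.3% higher. The median was 0.08 over members and -0.01 over all genes, and 66 members had a positive value. Complex IV had 5 members higher and 1 lower of 24, complex I 4 higher and 1 lower of 42, and complexes III and V 1 higher each. Within complex IV the 11 tested subunits had medians of 0.25 in Null cells and 0.23 in WT cells, and the 9 assembly factors 0.15 and -0.13. The changes were mostly small, and Ndufa4l2 apart the called log2 differences lay between 0.25 and 1.00 in Null cells and between -0.41 and 0.69 in WT cells. These counts move with 1 library: without WT 0h replicate 1 the WT comparison called 5 members, and the Null comparison called 9 without Null 0h replicate 1, 7 without Null 24h replicate 1 and 8 without Null 24h replicate 2. With library totals alone for scaling, the Null comparison called 9 members. Counts under alternatives, here and below, are given without the share of all genes called in the same fit. They do not show whether members moved apart from other genes.

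**Figure D1:**
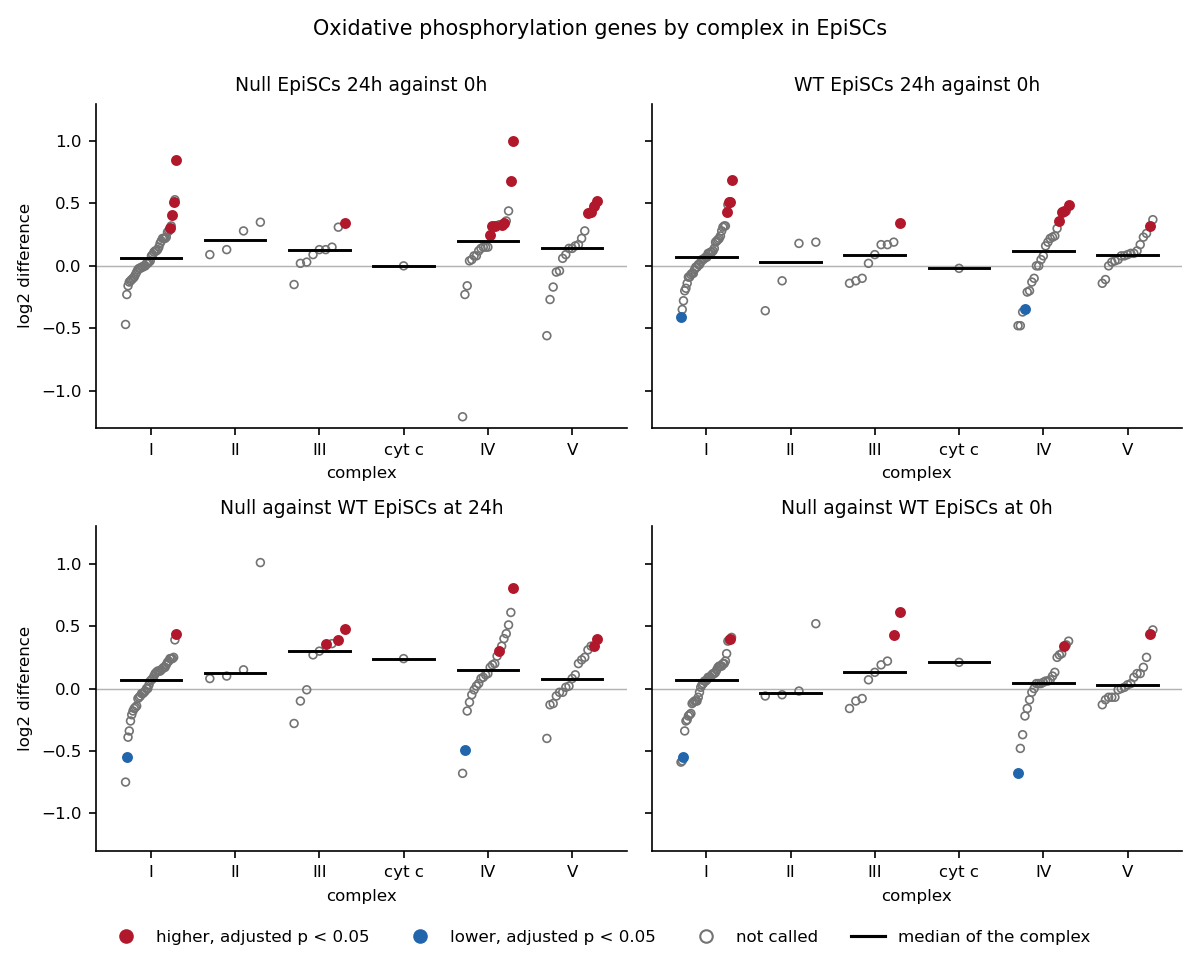
Log2 difference of each tested member in 4 EpiSC comparisons, grouped by complex on the x axis, with red and blue points for members called higher and lower and a black line for the median of the complex. Ndufa4l2 is not drawn but is counted in the medians. In Null cells at 24h against 0h all 16 coloured points lie above 0, and most of them belong to complexes IV and V.

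Complex IV, cytochrome c oxidase, held the most called members. Cox8a stood at 1963 and 1907 CPM in Null cells at 24h, against 1686 and 1563 CPM at 0h, and at 1739 and 1711 CPM in WT cells at 24h, against 1298 and 1266 CPM at 0h. The 24h libraries lay above the 0h libraries within each genotype. Such separation of libraries, here and below, is a description and carries no test. The log2 difference of Cox8a was 0.25 ± 0.09 in Null cells (adjusted p = 0.0452) and 0.43 ± 0.09 in WT cells (adjusted p = 5.9e-04), where ± is a standard error here and below. Its call in Null cells was lost in 7 of 10 alternative analyses, with adjusted p up to 0.265, whereas that in WT cells held in all 10.

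Cox7a2l encodes the factor that joins complexes III and IV in supercomplexes. It stood at 482 and 465 CPM in Null cells at 24h, against 380 and 380 CPM at 0h, and at 492 and 491 CPM in WT cells at 24h, against 367 and 355 CPM at 0h. The groups did not overlap in time within either genotype, with log2 differences of 0.32 ± 0.10 in Null cells (adjusted p = 0.0274) and 0.44 ± 0.10 in WT cells (adjusted p = 0.0016). The Null call was lost in 6 of 10 alternatives. Cox6b1, the subunit that bridges the complex IV dimer, stood at 480 and 499 CPM in Null cells at 24h, against 370 and 414 CPM at 0h, and at 497 and 469 CPM in WT cells at 24h, against 362 and 389 CPM at 0h. Its log2 difference was 0.32 ± 0.11 in Null cells (adjusted p = 0.0297) and 0.36 ± 0.10 in WT cells (adjusted p = 0.0123), and these calls were lost in 5 and 3 of 10 alternatives.

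Cox6c, a small membrane subunit, had the smallest p among members in Null cells. It stood at 951 and 934 CPM in Null cells at 24h, against 595 and 585 CPM at 0h, a log2 difference of 0.68 ± 0.10 (adjusted p = 2.6e-06). In WT cells it stood at 772 and 762 CPM at 24h, against 622 and 697 CPM at 0h, and was not called. Cox11, a chaperone that delivers copper to the active site, stood at 39.6 and 48.8 CPM in Null cells at 24h, against 22.1 and 21.7 CPM at 0h, and rose by 1.00 ± 0.23 (adjusted p = 0.00197). Its span overlaps Tom1l1. The structural subunits Cox4i1 and Cox5a were higher at 24h in Null cells by 0.33 ± 0.10 and 0.34 ± 0.11 (adjusted p = 0.0173 and 0.0222), calls that were lost in 3 and 6 of 10 alternatives. Cox7a2, a membrane subunit, stood at 436 and 393 CPM in WT cells at 24h, against 302 and 292 CPM at 0h, and was higher by 0.49 ± 0.11 (adjusted p = 0.00182), and its span overlaps Tmem30a.

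Cox7c moved the other way in WT cells. This small subunit stood at 641 and 692 CPM in WT cells at 24h, against 939 and 757 CPM at 0h, a log2 difference of -0.35 ± 0.10 (adjusted p = 0.0157). The difference rested on the high 0h library, and without WT 0h replicate 1 it was -0.18 (adjusted p = 0.397). RefSeq lists a pseudogene named for Cox7c, so its counts could hold reads of a near copy.

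Ndufa4l2, an isoform known as a hypoxia target that lowers respiratory activity, was almost absent at 0h. Null cells held 36 counts over both libraries at 24h, against 0 at 0h, which is at least 9.19-fold higher when the floor of 3 counts over the group stands in for 0. WT cells held 28 counts at 24h, against 2 at 0h, a ratio of 11.4 with an exact counting interval of 2.88 to 99. Per library it stood at 12.9 and 6.69 CPM in Null cells at 24h and at 7.66 and 3.83 CPM in WT cells at 24h, far below the 279 to 393 CPM of Ndufa4. It passed the filter on low counts through its 24h libraries, so its calls had to differ and are given as a description. Without it, 16 of 96 members were higher at 24h in Null cells, and 10 were higher and 2 lower in WT cells. The gene overlaps Shmt2 on chromosome 10, and whether counting used strand is not given in the sources used here.

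**Figure D2:**
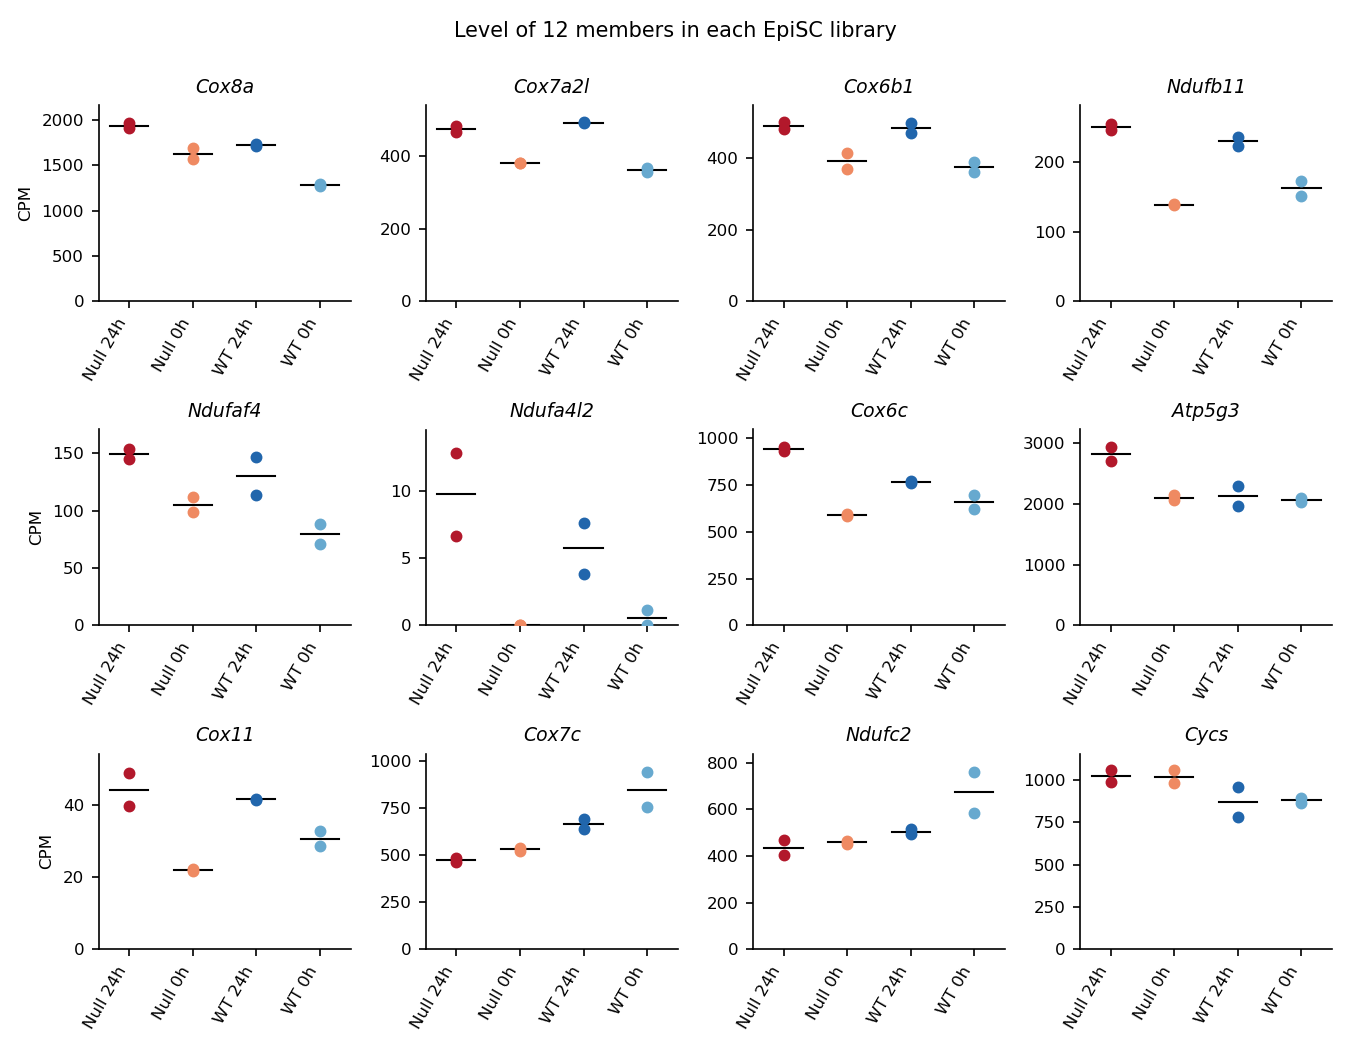
CPM of 12 members in each EpiSC library, with 1 point per library, a black line for the group mean and every y axis starting at 0. Cox8a, Cox7a2l, Cox6b1, Ndufb11, Ndufaf4 and Ndufa4l2 stand higher at 24h in both genotypes, and Cycs, with 986 and 1055 CPM in Null cells at 24h against 982 and 1055 CPM at 0h, does not.

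In complex I, Ndufb11 and Ndufaf4 were higher at 24h in both genotypes. Ndufb11, an accessory subunit of the membrane arm, stood at 247 and 255 CPM in Null cells at 24h, against 138 and 140 CPM at 0h, and at 236 and 224 CPM in WT cells at 24h, against 152 and 173 CPM at 0h. The log2 differences were 0.85 ± 0.13 in Null cells (adjusted p = 3.9e-06) and 0.51 ± 0.12 in WT cells (adjusted p = 0.00227). Ndufb11 lies at chrX:20615326-20617619 and its span overlaps Rbm10. Ndufaf4, an assembly factor, stood at 145 and 154 CPM in Null cells at 24h, against 98.6 and 112 CPM at 0h, and at 114 and 147 CPM in WT cells at 24h, against 71.2 and 88.8 CPM at 0h. It was higher by 0.51 ± 0.15 in Null cells and by 0.69 ± 0.15 in WT cells (adjusted p = 0.0165 and 0.00114). These calls were lost in 4 and 1 of 10 alternatives.

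The other called members of complex I were accessory subunits, and none of the 7 core subunits was called at 24h in either genotype. Ndufb5 stood at 379 and 407 CPM in WT cells at 24h, against 260 and 293 CPM at 0h (0.51 ± 0.11, adjusted p = 0.00134). Ndufb4 stood at 180 and 184 CPM in WT cells at 24h, against 143 and 127 CPM at 0h (0.43 ± 0.12, adjusted p = 0.0141). Ndufc2 stood at 514 and 494 CPM in WT cells at 24h, against 759 and 586 CPM at 0h (-0.41 ± 0.11, adjusted p = 0.00717), and without WT 0h replicate 1 the difference was -0.21 (adjusted p = 0.334). In Null cells Ndufa1 and Ndufa12 were higher by 0.41 ± 0.13 and 0.30 ± 0.10 (adjusted p = 0.0195 and 0.0361), and the span of Ndufa1 overlaps Rnf113a1. Each call was lost in 6 of 10 alternatives. Ndufa12 rested on 1 low library, with 1460 and 1500 CPM at 24h, against 1047 and 1366 CPM at 0h, and without Null 0h replicate 1 its adjusted p was 0.62.

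Complex II had no called member in any EpiSC comparison. Sdha stood at 266 and 281 CPM in Null cells at 24h, against 214 and 237 CPM at 0h, with a difference of 0.28 whose 95% interval ran from 0.04 to 0.52 (adjusted p = 0.10). In complex III the small subunit Uqcrb stood at 425 and 407 CPM in Null cells at 24h, against 328 and 327 CPM at 0h (0.34 ± 0.11, adjusted p = 0.0217, lost in 6 of 10 alternatives). Uqcrh, the hinge protein, stood at 392 and 434 CPM in WT cells at 24h, against 308 and 346 CPM at 0h (0.34 ± 0.11, adjusted p = 0.0293, lost in 4 of 10 alternatives). RefSeq lists 2 pseudogenes named for Uqcrh. Cycs differed between 24h and 0h by 0.00, with an interval of -0.20 to 0.21, in Null cells and by -0.02, with an interval of -0.23 to 0.18, in WT cells.

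In complex V, 4 members were higher at 24h in Null cells, 3 of them in the membrane part or peripheral stalk. Atp5g3 stood at 2702 and 2941 CPM in Null cells at 24h, against 2142 and 2071 CPM at 0h (0.42 ± 0.09, adjusted p = 8.9e-04). In WT cells it stood at 1973 and 2300 CPM at 24h, against 2102 and 2037 CPM at 0h, and was not called. Atp5j, a peripheral stalk subunit, stood at 313 and 292 CPM in Null cells at 24h, against 209 and 214 CPM at 0h (0.52 ± 0.12, adjusted p = 0.00125), and its span overlaps Gabpa. Atp5l, the membrane subunit g, stood at 573 and 578 CPM in Null cells at 24h, against 427 and 426 CPM at 0h (0.43 ± 0.10, adjusted p = 0.00188). Atp5c1, the rotating central stalk, was higher by 0.48 ± 0.13 (adjusted p = 0.0118, lost in 4 of 10 alternatives). In WT cells Atp5g1 was called, at 674 and 718 CPM at 24h, against 583 and 532 CPM at 0h (0.32 ± 0.10, adjusted p = 0.0209, lost in 3 of 10 alternatives). The catalytic subunits Atp5a1 and Atp5b were not called, with differences of -0.05 to 0.10 over both genotypes and standard errors of 0.09.

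Summed over all members, the level was 33822 ± 198 CPM in Null cells at 24h, against 29793 ± 96.3 CPM at 0h (SD, n = 2 each), a difference of 13.5%. In WT cells it was 31260 ± 508 CPM at 24h, against 29007 ± 160 CPM at 0h (SD, n = 2 each), a difference of 7.77%. With library totals alone these differences were 8.16% and 2.27%. Complex IV summed to 8029 ± 117 CPM in Null cells at 24h, against 6710 ± 218 CPM at 0h, and to 7621 ± 130 CPM in WT cells at 24h, against 6587 ± 121 CPM at 0h (SD, n = 2 each). These are differences of 19.7% and 15.7%, and 14% and 9.8% with library totals alone. In Null cells complexes I, II, III and V were 8.3%, 17.9%, 11.8% and 15.3% higher at 24h. With library totals alone these values were 3.2%, 12.3%, 6.57% and 9.87%. In WT cells complexes I, II and V were 6.61%, 7.55% and 5.93% higher, and 1.17%, 2.07% and 0.533% with library totals alone. Complex III in WT cells was 2.14% higher at 24h with TMM scaling and -3.07% with library totals alone, so its direction turned with the scaling. The sums are descriptions and carry no test.

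**Figure D3:**
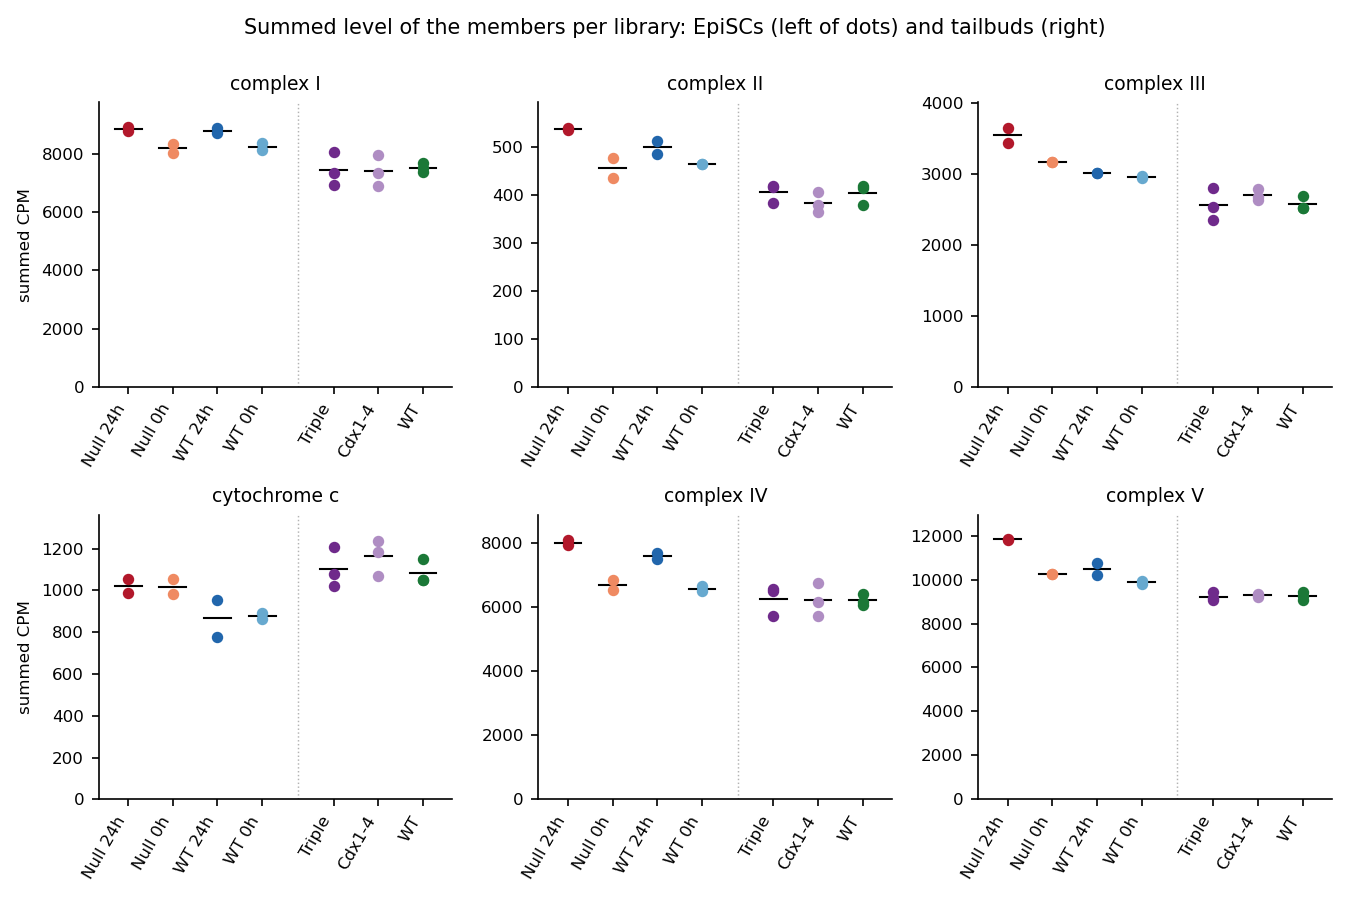
Summed CPM of the members of each complex in every library, with EpiSC groups left of the dotted line and tailbud groups right of it, a black line for each group mean and y axes starting at 0. Complex IV averages 8029 CPM in Null cells at 24h and 6710 CPM at 0h, and the tailbud groups overlap in each panel. The tables were normalized separately, so heights are not compared across the dotted line.

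The responses of Null and WT cells, which share no library, were set side by side. 6 members, Cox6b1, Cox7a2l, Cox8a, Ndufa4l2, Ndufaf4 and Ndufb11, were called higher in both, which is 35.3% of the Null list and 54.5% of the WT list, and 5 without Ndufa4l2. Over all 97 members, 53 had positive differences in both genotypes, 13 had negative ones in both and 31 had opposite signs. Spearman's rho between the responses was 0.33 over the 97 members and 0.58 over all 9703 genes, a description across genes that are not independent. In the test of the difference between responses, Null minus WT, no member was called by edgeR or DESeq2, where 0.567% of all genes were called. There were 8 members at an unadjusted p below 0.05, led by Cox6c at 0.46 ± 0.14 (adjusted p = 0.161), Atp5g3 at 0.38 ± 0.13 (adjusted p = 0.244) and Atp5g1 at -0.36 ± 0.14 (adjusted p = 0.314). The count of 8 is given without the share of all genes, so it does not set members apart from other genes. In this fit no call made in 1 genotype alone was shown to differ between genotypes. Without WT 24h replicate 2, Atp5c1 was called at 0.69 (adjusted p = 0.0157).

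At 0h, 5 members were higher and 2 were lower in Null than in WT EpiSCs, and 6.67% of all genes were called, 3.32% higher and 3.35% lower. The members' share called was 7.22%, near that of all genes, and their median log2 difference was 0.06. Cox7c stood at 524 and 538 CPM in Null cells at 0h, against 939 and 757 CPM in WT cells, a difference of -0.68 ± 0.11 (adjusted p = 4.8e-05). It was the only one of these 7 calls to hold in every alternative analysis. Ndufc2 stood at 453 and 466 CPM in Null cells, against 759 and 586 CPM in WT cells (-0.55 ± 0.11, adjusted p = 0.00184). Cox8a was higher in Null cells by 0.34 ± 0.09 and Atp5g1 by 0.44 ± 0.10 (adjusted p = 0.0153 and 0.00416). In complex III, Uqcrfs1, the Rieske iron-sulfur protein, was higher in Null cells by 0.43 ± 0.11 and the core protein Uqcrc1 by 0.61 ± 0.16 (adjusted p = 0.0145 and 0.0173). Uqcrc1 rested on 1 library, with 169 and 115 CPM in Null cells, against 103 and 85.4 CPM in WT cells. Ndufs6, a zinc-binding accessory subunit of complex I, was higher by 0.40 ± 0.12 (adjusted p = 0.0332, lost in 6 of 10 alternatives). The count was 4 without Null 0h replicate 1, 3 without WT 0h replicate 1 and 2 without WT 0h replicate 2.

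At 24h, 8 members were higher and 2 were lower in Null than in WT EpiSCs, where 8.05% of all genes were called, 3.70% higher and 4.35% lower. The members' share called was 10.3%, with 8.25% higher, and their median was 0.11. Complex III had 3 of its 9 members higher. Uqcrb stood at 425 and 407 CPM in Null cells, against 300 and 295 CPM in WT cells (0.48 ± 0.11, adjusted p = 0.00283). Uqcrfs1 stood at 388 and 415 CPM in Null cells, against 297 and 316 CPM in WT cells (0.39 ± 0.11, adjusted p = 0.0207). Uqcrq stood at 947 and 1069 CPM in Null cells, against 753 and 819 CPM in WT cells (0.36 ± 0.10, adjusted p = 0.0217). The groups did not overlap for any of these subunits, which also holds for many members that were not called. The span of Uqcrq overlaps that of Gdf9.

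Outside complex III, Cox16, an assembly factor of complex IV, stood at 62.9 and 85.6 CPM in Null cells at 24h, against 44.2 and 38.3 CPM in WT cells (0.81 ± 0.18, adjusted p = 0.00299). Atp5g3, Ndufa1, Atp5g2 and Cox6c were higher in Null cells by 0.40 ± 0.09, 0.44 ± 0.12, 0.34 ± 0.10 and 0.30 ± 0.10 (adjusted p = 0.00399, 0.0198, 0.04 and 0.049). In the same order, these calls were lost in 2, 4, 6 and 9 of 10 alternatives. Ndufb5 stood at 256 and 279 CPM in Null cells, against 379 and 407 CPM in WT cells (-0.55 ± 0.11, adjusted p = 0.00149). Cox7c stood at 465 and 484 CPM in Null cells, against 641 and 692 CPM in WT cells (-0.49 ± 0.11, adjusted p = 0.0024). None of the 10 calls held in every alternative, and the count was 3 without Null 24h replicate 1, 3 without Null 24h replicate 2 and 4 without WT 24h replicate 1. With library totals alone the split was 5 higher and 4 lower. The summed level was 8.2% higher in Null than in WT cells at 24h, and 4.3% with library totals alone. At 0h it was 2.71% higher, and -1.38% with library totals alone.

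In tailbuds few members were called between genotypes. Of 90 tested members, 1 was called in Triple against WT tailbuds, where 2.90% of all 6003 genes were called, and none in Cdx1-4 against WT, where 0.133% of genes were called, or in Triple against Cdx1-4, where 2.02% were called. At an unadjusted p below 0.05 there were 5, 7 and 5 members in these comparisons, and DESeq2 called none in any of them. The 95% interval lay within 0.5 log2 units of 0 for 55, 57 and 54 of the 90 members. The counts at unadjusted p and of intervals are given without the share of all genes. They do not show whether members differ from other genes. In the same libraries the tailbud markers summed to 397 to 501 CPM in Triple, 869 to 1023 CPM in Cdx1-4 and 1247 to 1261 CPM in WT tailbuds. This list includes Cdx1, Cdx2 and Cdx4, genes of the family that the genotypes are named for. They averaged 75.8, 100 and 0 CPM in Triple, 61.7, 206 and 0.461 CPM in Cdx1-4 and 182, 212 and 43.5 CPM in WT tailbuds. Part of the difference in these sums therefore comes from the Cdx genes themselves. In bulk tissue, fewer cells of a type and less RNA per cell cannot be told apart.

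Cox14, an assembly factor that acts with newly made Cox1, was the called member. It had 24, 23 and 25 counts (65.3, 56.2 and 43.4 CPM) in Triple tailbuds, against 20, 14 and 8 counts (24.4, 36.9 and 20.2 CPM) in WT tailbuds. The libraries did not overlap, and the difference was 1.01 ± 0.30 (adjusted p = 0.0438). In Cdx1-4 tailbuds it had 43, 33 and 22 counts (58.3, 45.6 and 45.8 CPM), with a difference from WT of 0.92 ± 0.28 (adjusted p = 0.278). The Triple call was lost in 8 of 13 alternatives, among them leaving out Triple green-1, Triple blue-1, WT green-1 or WT blue-2. Over all 13 alternatives the adjusted p ranged from 0.0285 to 0.512. Cox14 lies at chr15:99725618-99728136, and no other RefSeq gene overlaps it.

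**Figure D4:**
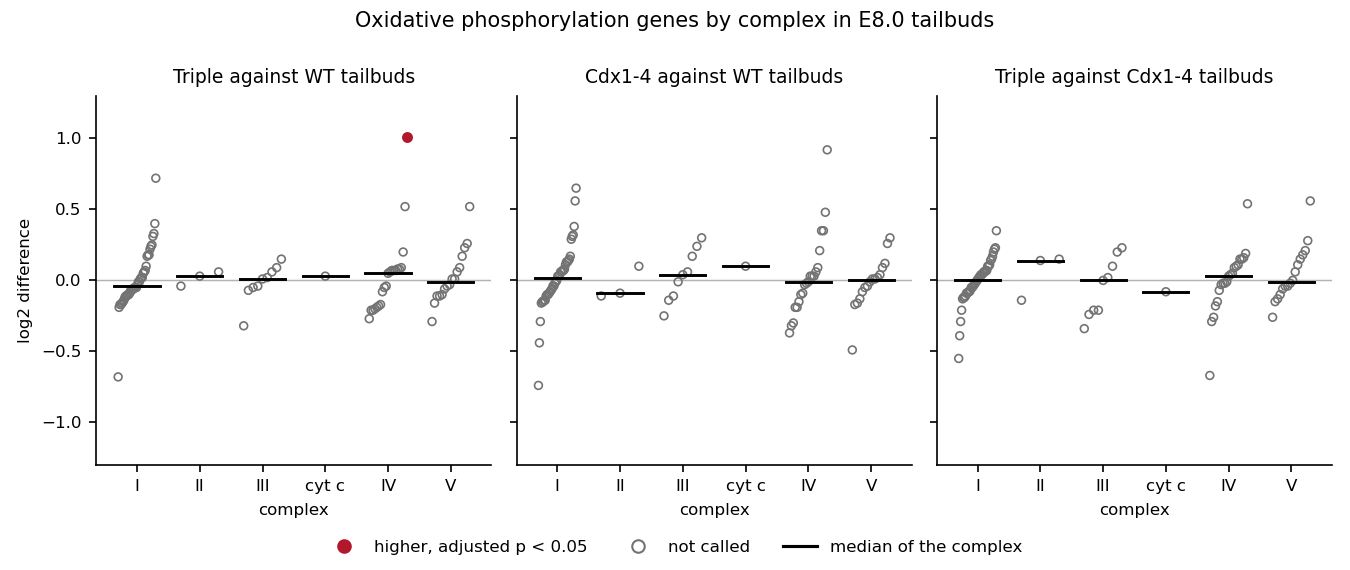
Log2 difference of each tested member in 3 tailbud comparisons, grouped by complex, with the called member in red, members not called as open points and a black line for the median of the complex. Cox14 at 1.01 in Triple against WT is the only red point, and the medians of the larger complexes lie near 0.

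The levels of Cox8a, Ndufb11 and Cycs overlapped between tailbud genotypes. This did not hold for every member called in EpiSCs. The Cdx1-4 and WT tailbud libraries did not overlap for Ndufaf4, Cox7c, Atp5g3, Uqcrb and Ndufs6. The Triple and WT tailbud libraries did not overlap for Atp5j and Cox16. None of these members was called in tailbuds, and the share of all genes separated in this way is not given. Cox8a stood at 1685, 1643 and 1790 CPM in Triple tailbuds, 1837, 1970 and 1545 CPM in Cdx1-4 tailbuds and 1574, 1865 and 1839 CPM in WT tailbuds. Ndufb11 stood at 237, 171 and 191 CPM in Triple, 183, 229 and 166 CPM in Cdx1-4 and 182, 161 and 179 CPM in WT tailbuds. Cycs stood at 1208, 1023 and 1079 CPM in Triple, 1070, 1186 and 1237 CPM in Cdx1-4 and 1048, 1150 and 1051 CPM in WT tailbuds. The ATP synthase subunit Atp5e had the smallest p against WT in Cdx1-4 tailbuds, at 271, 181 and 227 CPM, against 337, 261 and 351 CPM in WT tailbuds (-0.49 ± 0.14, adjusted p = 0.267), and these libraries overlapped. Summed over all members, the level was 26994 ± 1281 CPM in Triple, 27157 ± 567 CPM in Cdx1-4 and 27058 ± 337 CPM in WT tailbuds (SD, n = 3 each). Without the Cdx1-4 library with high erythroid markers, no member was called in Cdx1-4 against WT either.

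Other genes of energy metabolism were counted from lists. Of 19 genes of pyruvate entry and the TCA cycle, 6 were higher and none lower at 24h in Null cells, and 5 were higher and none lower in WT cells. Pdha1, the catalytic subunit of pyruvate dehydrogenase, was higher by 0.94 in Null cells and 0.75 in WT cells (adjusted p = 9.7e-07 and 2.1e-05), and Ogdh by 0.72 and 0.54 (adjusted p = 1.8e-04 and 0.0103). Medians of this list were 0.20 in Null cells and 0.07 in WT cells.

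Glycolysis genes differed in sign between the genotypes' counts. Of 17 genes, none was higher and 4 were lower at 24h in Null cells, with a median of -0.16, and 6 were higher and none lower in WT cells, with a median of 0.15. The calls in Null cells included Pfkm at -1.71, Slc2a3 at -0.74 and Hk1 at -1.61, which act in glucose uptake and the early steps. Those in WT cells included Ldha at 0.47, Tpi1 at 0.48 and Pgam1 at 0.40. Ldha stood at 1584 and 1495 CPM in Null cells at 24h, against 1564 and 1499 CPM at 0h, and at 1285 and 1189 CPM in WT cells at 24h, against 982 and 808 CPM at 0h. At 0h, 6 of the 17 genes were higher in Null than in WT cells, Ldha by 0.77 (adjusted p = 1.3e-06). None of the 17 was called in the test of the difference between responses.

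**Figure D5:**
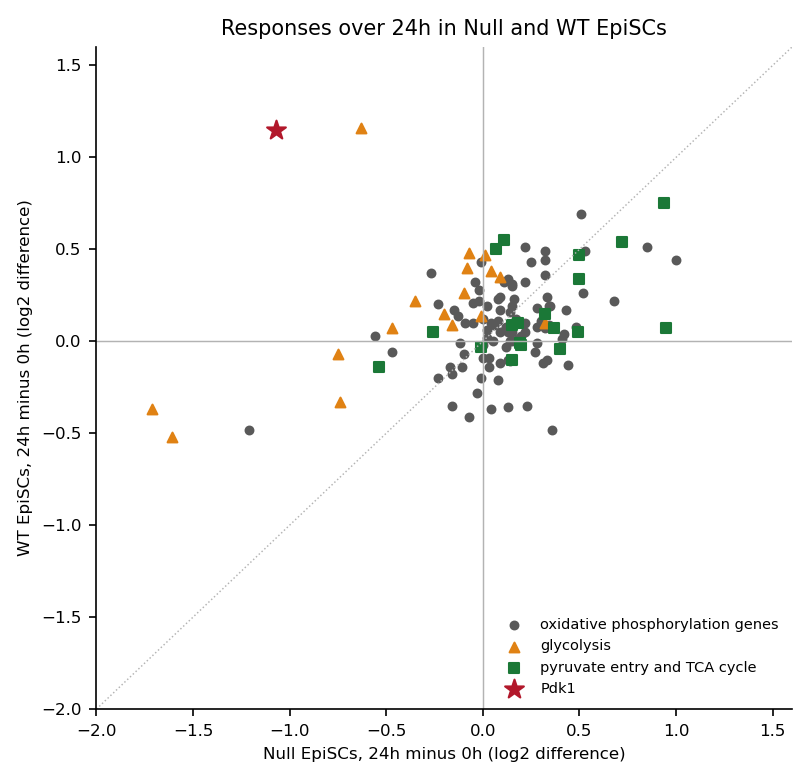
Log2 difference between 24h and 0h in Null EpiSCs (x axis) and WT EpiSCs (y axis) for oxidative phosphorylation genes (grey circles), glycolysis genes (orange triangles), TCA cycle genes (green squares) and Pdk1 (red star), with a dotted line of equal response. Ndufa4l2 is outside the axes and not drawn. Pdk1 lies at -1.07 and 1.15, and Pfkm lies at -1.71 in Null cells and -0.37 in WT cells.

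Among regulators of mitochondrial biogenesis, 12 of 15 genes were tested, and none was higher and 1 was lower at 24h in each genotype: Tfb1m at -1.39 in Null cells (adjusted p = 0.0277) and Gabpb1, a subunit of GABP, at -0.67 in WT cells (adjusted p = 0.0496). Tfam, which packages and transcribes mitochondrial DNA, was higher in Null than in WT cells at 24h by 0.45 (adjusted p = 0.0233). Among 3 ATP synthase genes outside the symbol rule, the small membrane subunit Usmg5 was higher at 24h by 0.39 in Null cells and 0.40 in WT cells (adjusted p = 0.0105 and 0.00927), and 2010107E04Rik was higher in Null cells by 0.65 (adjusted p = 7.8e-05). The inhibitor Atpif1 was lower in Null cells by -0.50 (adjusted p = 7.8e-04). Of 34 further assembly factors, 25 were tested in EpiSCs. At 24h against 0h, 1 was higher and 1 lower in Null cells, and none was higher and 1 lower in WT cells. In tailbuds, of all these lists, the glucose transporter Slc2a1 alone was called, higher in Triple than in WT tailbuds by 0.63 ± 0.12 (adjusted p = 7.6e-04).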

How the data were processed

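CEL-Seq counts of 8 EpiSC and 9 tailbud libraries were analysed from the authors' 2 deposited tables, which hold unnormalized counts per gene, mapped to mm10 per the submitters' processing notes. The aligner, the counting tool and its use of strand are not given in the sources used here. Of the 3 Cdx1-4 tailbud columns, 1 is spelt Cd4_1-4 and was read as that group, and 0 columns of per-sample values were left unused. The tables hold no pseudogene symbol (-ps) of the members, while RefSeq lists 17 for 10 members, so counts of Atp5c1, Atp5l, Cox7c, Ndufa12, Uqcrh and others could include reads of near copies. Of the 31 members called in any comparison, 13 have a span that overlaps another RefSeq gene. Peak files of the series were not used here.

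Each table was fitted alone in edgeR 4.0.16 (R 4.3.3) with filterByExpr, TMM scaling, 1 mean per group and the robust quasi-likelihood test, leaving 4 and 6 residual degrees of freedom. Benjamini-Hochberg adjustment covered all tested genes, the threshold was 0.05, and standard errors came from the F statistic. Alternatives were RLE factors, library totals alone, no filter, DESeq2 1.42.0, compared groups only, a replicate block, libraries tagged blue only, and leaving out each library. The exact interval of the Ndufa4l2 ratio and the floors cover counting error only. Intervals of log2 differences were built from these standard errors, so they also include the spread between libraries. No pair of libraries matched within sampling noise. Every called member was named, with key subunits, the highest and lowest member of each complex, and up to 3 called genes per list with the smallest p. Members, lists and rules were chosen with earlier results of these data known. Genes singled out for a contrast were chosen after their values were seen. Positions and promoters come from RefSeq (GRCm38.p6).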

Additional observations from a re-analysis of the deposited data

Results flagged for a closer look

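Pdk1, a kinase that inactivates pyruvate dehydrogenase and so limits the conversion of pyruvate to acetyl-CoA, responded differently in the genotypes. It stood at 19.3 and 14 CPM in Null EpiSCs at 24h, against 34.8 and 37 CPM at 0h, and at 34.8 and 18.5 CPM in WT EpiSCs at 24h, against 11.2 and 14.2 CPM at 0h. The difference between the responses, Null minus WT, was -2.22 ± 0.41 on the log2 scale (SE, edgeR's quasi-likelihood test, adjusted p = 0.0039), with a response of -1.07 in Null cells and 1.15 in WT cells. Without WT 24h replicate 1, the higher of the WT libraries at 24h, the difference was -1.62 (adjusted p = 0.118).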

How the results depend on the processing

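No result changed its direction past the threshold under any alternative. Of the calls, 3 of 13 in WT cells at 24h against 0h (Cox7a2, Cox7a2l and Cox8a), 7 of 17 in Null cells (Atp5g3, Atp5j, Atp5l, Cox11, Cox6c, Ndufa4l2 and Ndufb11), 1 of 7 between genotypes at 0h, 0 of 10 at 24h and 0 of 1 in tailbuds held in every alternative. Library totals alone gave 9 calls in Null cells at 24h, and DESeq2 gave 8. DESeq2 gave 6 calls in Null against WT cells at 24h. Triple against WT tailbuds had 0 calls with no filter, with blue libraries only, with the compared groups only and with DESeq2. Leaving out 1 library gave 5 to 12 calls in WT cells, 7 to 12 in Null cells, 2 to 6 between genotypes at 0h, 3 to 11 at 24h, 0 to 1 for the difference of responses and 0 to 1 for Triple against WT, where the call left without Triple green-1 was a lower member other than Cox14. The replicate numbers did not pair the libraries: deviations of same-numbered libraries correlated at 0.00722 to 0.0884 in EpiSCs and -0.0934 to 0.0537 in tailbuds. With the replicate block there were 20 calls in WT cells, 21 in Null cells, 7 between genotypes at 0h, 16 at 24h and 1 for the difference of responses, Cox6c at 0.46 (adjusted p = 0.031). The summed level was 32176 CPM in Null cells at 24h, 30165 CPM in WT cells at 0h, 26199 CPM in Cdx1-4 tailbuds and 25917 CPM in WT tailbuds with library totals alone, and 29891 CPM in Null cells at 0h with RLE factors. The fit of the compared groups only was not run for the difference of responses, which uses all EpiSC groups. Counts of calls in this section are given without the share of all genes called in the same fit. The cause of these shifts was not tested. In tailbuds Sdhd, Ndufaf3, Ndufaf5, Atp5s and 4 complex IV isoforms did not pass the filter on low counts and were not tested.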
